A study of Mus musculus with 30 samples.

Results

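The 39 protein-coding Hox genes of the mouse lie in 4 clusters, and their chromatin was followed in cells whose growth state is set by HOXA9, itself the product of one of these genes. Members were all protein-coding genes of the GRCm38 gene table with a symbol made of Hoxa, Hoxb, Hoxc or Hoxd and a number, which gave 39 of the 21631 protein-coding genes of the autosomes and X. The Hoxa cluster on chromosome 6 held 11 of them, Hoxb on chromosome 11 held 10, and Hoxc on chromosome 15 and Hoxd on chromosome 2 held 9 each. The label fits the members by construction, since no measured value chose them.

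Chromatin immunoprecipitation with sequencing (ChIP-seq) was done on C57BL/6 cells grown in medium with stem cell factor. ER-Hoxa9-Lys-GFP cells carry HOXA9 fused to estrogen receptor sequence (ER), which makes the fusion depend on estradiol (E2). For H3K4me3, a histone mark of active promoters, the groups were cells kept in E2, cells without E2 for 120 h, and cells without E2 for 24, 40 or 72 h and then given E2 again for 96, 80 or 48 h. Below, 24, 40 and 72 h always mean the withdrawal before E2 was given back, and since withdrawal and return always add up to the same total, the effects of both cannot be told apart. Binding of the tagged protein was mapped by ChIPs titled V5 and AM in untreated V5-Hoxa9-AM cells and in V5-ER-Hoxa9-AM cells in E2, and by V5 in the latter after 72 h without E2 and 48 h with it. Both AM samples are labelled with V5 as their antibody. Each group was 1 library. No test was therefore made, and differences between lists have no replicates behind them.

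Hox genes encode homeodomain transcription factors that give cells their position along the body axis, and the order of the genes in a cluster follows the order in which they are used. Genes with the same number in different clusters are paralogs, copies of one ancestral gene. Trithorax-group proteins such as MLL1 (Kmt2a) place H3K4me3 on active Hox genes, and Polycomb-group proteins keep silent ones closed. In blood, genes of the Hoxa cluster are used in stem and progenitor cells, and HOXA9 with its partner MEIS1 can drive acute myeloid leukaemia.

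The H3K4me3 lists held between 17497 (E2) and 23835 (120 h) peaks on the 20 chromosomes used. They give the start and end of each peak and no height, so the measure here is how many bp of a gene and 1 kb on either side lay in a peak. A gene is called marked where at least 1 bp did, and an unmarked gene is one without a listed peak, which does not show that the mark was absent. All 8 marker genes of myeloid progenitors, among them Kit, Cd34, Flt3 and Mpo, were marked in each of the 5 lists, against 1 of 8 genes of other cell types (Klf1). Being marked does not mean an unchanged length. From E2 to 120 h, covered length fell at Mpo (5894 to 1270 bp), Cd34 (4628 to 1053 bp) and Ctsg (4131 to 1209 bp). It also fell at Kit (4179 to 2365 bp), Flt3 (2060 to 1514 bp) and Myb (5971 to 4428 bp). It rose at Spi1 (2339 to 5463 bp) and Cebpa (3109 to 3316 bp).

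Hoxa9 was the one Hox gene with a peak inside the gene in all 5 H3K4me3 lists. It was the marked 1 of 39 Hox genes in E2 (2.56%), where 47.1% of all protein-coding genes were marked. In the 24 h list 3 of 39 were marked, beside 50.7% of all genes. In the 40, 72 and 120 h lists 2 of 39 were, beside 50.5%, 51.4% and 53.2%. Beside Hoxa9 these were Hoxd13, with at most 112 bp in any list, and Hoxb3, at 24 h. The other 36 Hox genes (92.3%) were unmarked in all 5 lists, as were 45.2% of all genes. In Hoxa they number 10, with Hoxa3, Hoxa7, Hoxa10 and Hoxa13 among them. In Hoxb they are Hoxb1, Hoxb2, Hoxb4, Hoxb5, Hoxb6, Hoxb7, Hoxb8, Hoxb9 and Hoxb13. In Hoxc they are all 9 genes (Hoxc4, Hoxc5, Hoxc6, Hoxc8, Hoxc9, Hoxc10, Hoxc11, Hoxc12 and Hoxc13), and in Hoxd they are Hoxd1, Hoxd3, Hoxd4, Hoxd8, Hoxd9, Hoxd10, Hoxd11 and Hoxd12.

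**Figure D1:**
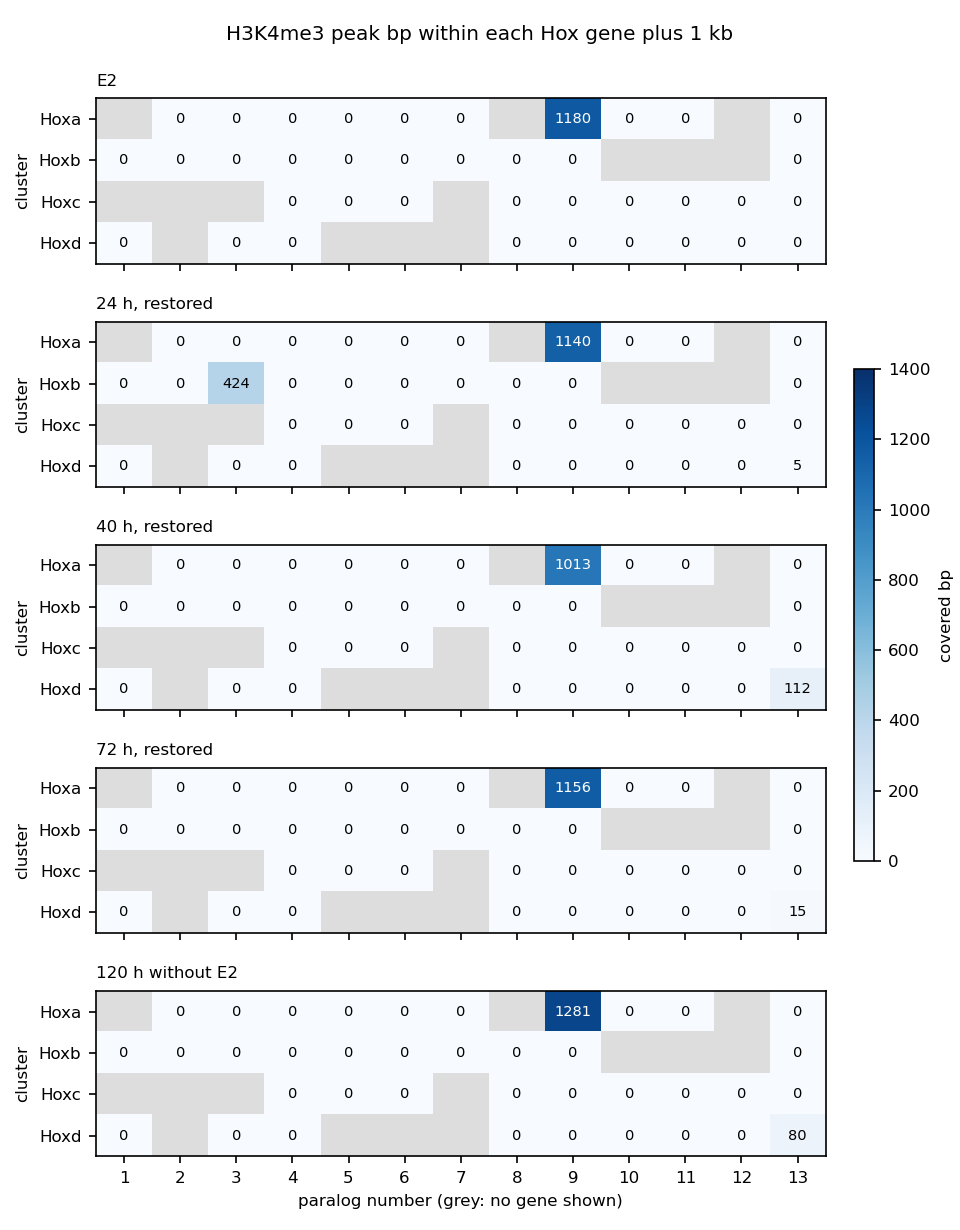
H3K4me3 peak bp in each Hox gene plus 1 kb, with a panel for each list (1 library each), clusters as rows and paralog numbers as columns, and grey where no gene is shown. Hoxa9 holds between 1013 and 1281 bp in every panel, and the other filled fields are Hoxb3 at 24 h and the small values of Hoxd13.

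Hoxa9 lies on chromosome 6 from 52223097 to 52227370, on the minus strand, and encodes the factor whose fusion controls these cells. Peaks covered 1180 bp of it in E2 and, in order of withdrawal, 1140, 1013, 1156 and 1281 bp. The list at 40 h was the lowest and that at 120 h the highest, and the highest was 1.26 times the lowest. Among the 9956 genes marked in all 5 lists this ratio had a median of 1.73, and 9.29% of them had a ratio at or below that of Hoxa9.

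The lists differed in how much was called, and most genes had more covered length after withdrawal than in E2. On the scale log2((bp + 50)/(bp in E2 + 50)), the median over genes with a peak in either list was 0.35, 0.40, 0.54 and 0.59 from the 24 h to the 120 h list. Hoxa9 stood at -0.05, -0.21, -0.03 and 0.11 in the same order. Each of its 4 values lay below the lower quartile of all genes, which was 0.09, 0.16, 0.26 and 0.18. The 4 comparisons share the E2 library. In E2, 61.6% of the genes marked in all 5 lists had a covered length at or below that of Hoxa9, and at 120 h 38.6% had. Signal from the Hoxa9 coding sequence in the ER fusion cannot be told apart from that of the gene in any of these values.

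The mark at Hoxa9 came as a pair of separate peaks at the same places in each list. The one nearer to the annotated start was 581 bp wide in E2 and 602, 511, 646 and 699 bp at 24, 40, 72 and 120 h. The farther one was 599 bp wide in E2 and 538, 502, 510 and 582 bp in the same order. All 5 lists shared 498 bp of the nearer peak and 482 bp of the farther one, and the gap between both was 878 bp at 120 h to 1107 bp at 40 h.

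Neither peak reached the annotated start of the gene. The nearer one began 1230 bp (120 h) to 1275 bp (24 h) inside the gene, and the farther one between 2807 and 2886 bp. Of 8163 genes that were marked in all 5 lists and have a start in the RefSeq promoter table, 355 (4.35%), with Hoxa9 among them, had no peak within 1 kb of a listed start in any list. Every ER-Hoxa9-Lys-GFP library comes from cells that also hold a Hoxa9 coding sequence in the ER fusion. Signal from this added copy and from the gene on chromosome 6 cannot be told apart in peak lists, and exon positions were not used here.

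The sequence before the Hoxa9 start is shown because the peaks leave it free: the 250 bases upstream had 0 bp of H3K4me3 in all 5 lists. It lies at chr6:52227371-52227620 of GRCm38.p6 (RefSeq), minus strand, and capitals mark CpG dinucleotides, of which it holds 3.
Hoxa9: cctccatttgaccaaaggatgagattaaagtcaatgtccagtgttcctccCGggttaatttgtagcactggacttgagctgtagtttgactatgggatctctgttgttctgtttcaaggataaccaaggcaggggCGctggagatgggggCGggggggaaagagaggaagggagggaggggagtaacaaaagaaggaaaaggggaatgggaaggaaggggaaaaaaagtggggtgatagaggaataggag

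**Figure D2:**
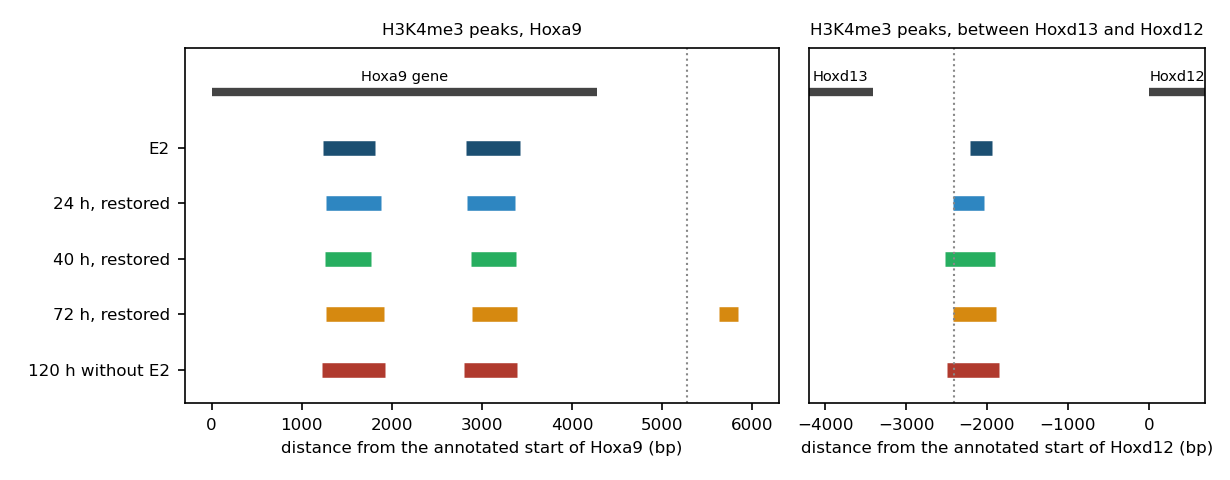
H3K4me3 peaks (bars, to scale) at Hoxa9 and between Hoxd13 and Hoxd12 in the 5 lists, by distance in bp from the annotated start of Hoxa9 or Hoxd12, with genes in dark grey and dotted lines 1 kb beyond the end of Hoxa9 and of Hoxd13. The pair of Hoxa9 peaks begins at least 1230 bp inside the gene in each list, and the Hoxd peak of the E2 list stops short of the dotted line that those of the other 4 lists cross.

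At 72 h a further peak of 207 bp lay between Hoxa9 and Hoxa7, 1359 bp beyond the end of Hoxa9 (52221532 to 52221738), and the other 4 lists had none there. Hoxa10, the neighbour of Hoxa9 on its upstream side and another Hox gene linked to leukaemia, was 5057 to 5102 bp from the nearest peak. Hoxa7, on the other side, was 2959 bp away at 72 h and 5371 to 5430 bp in the other lists. The other 8 genes of the cluster, with Hoxa13, the last used, among them, were at least 8465 bp from any peak. The 3 paralogs of Hoxa9 were unmarked throughout: the nearest peak was 34482 bp (24 h) to 195695 bp (E2) from Hoxb9, at least 178073 bp from Hoxc9 and at least 24606 bp from Hoxd9.

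Hoxd13, which shapes digits and the hind end of the body, had 0 bp in E2 and 5, 112, 15 and 80 bp at 24, 40, 72 and 120 h. By the 1 kb rule it was gained in each of the 4 lists. All of these bp come from the edge of a single peak in the stretch between Hoxd13 and Hoxd12, and that peak was also present in E2. It began 1201 bp beyond the end of Hoxd13 in E2, just outside the 1 kb window, and 996, 889, 986 and 921 bp beyond it at 24, 40, 72 and 120 h. Its width was 269 bp in E2 and 382, 617, 538 and 634 bp in the other lists. All 5 lists shared 177 bp of it (chromosome 2, 74672804 to 74672980). The peak was narrowest in E2, the list with the fewest peaks, and the start of Hoxd12 was 1856 to 2033 bp from it.

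Hoxb3, an early gene of the Hoxb cluster that acts in the hindbrain, was marked at 24 h by a peak of 424 bp (chromosome 11, 96311077 to 96311500). It had 0 bp in E2 and at 40, 72 and 120 h. This was the single H3K4me3 peak of the 24 h list in the Hoxb cluster and 100 kb around it, and the other 4 lists had none there. The median peak of the 24 h list was wider, at 506 bp. The annotated span of Hoxb3 is 40830 bp long and also holds Hoxb4, and the promoter table has no start for Hoxb3. The peak of 424 bp lay in this span, 4956 bp from Hoxb5 and 6767 bp from Hoxb4. It thus counts for Hoxb3 by the span and is not placed at a start.

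Counted against E2, the Hox genes gained were Hoxb3 and Hoxd13 at 24 h and Hoxd13 alone at 40, 72 and 120 h. These are 5.13% of the 39 at 24 h and 2.56% in each of the 40, 72 and 120 h lists. The shares of all genes gained were 4.06%, 3.78%, 4.70% and 6.50% at 24, 40, 72 and 120 h. No Hox gene was lost, where 0.411%, 0.388%, 0.356% and 0.425% of all genes were. With 1 or 2 genes behind each count, these shares are near the background and are no result about the Hox genes.

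Covered length was also summed over each whole cluster plus 1 kb, stretches between genes included and each base counted once. Hoxa held 1180 bp of peaks in E2 and 1140, 1013, 1363 and 1281 bp at 24, 40, 72 and 120 h, the 72 h value with the peak beyond Hoxa9 included. Hoxd held 269 bp in E2 and 382, 617, 538 and 634 bp. Hoxb held 424 bp at 24 h and 0 bp otherwise, and Hoxc held 0 bp in all 5 lists. In the 5 lists 3 or 4 peaks lay inside the clusters, which span 0.492 Mb in all, or 6.10 to 8.13 peaks per Mb against 6.65 to 9.06 over the genome. In each list 2 of these are the pair at Hoxa9, which cannot be told apart from signal of the ER fusion. The rate per Mb also takes no account of gene density. The clusters hold 39 Hox genes in 0.492 Mb, against 21631 protein-coding genes in 2631 Mb.

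Long stretches without a peak in any list surrounded most members. All 9 Hoxc genes lay in one such stretch of 440384 bp, Hoxa10, Hoxa11 and Hoxa13 in one of 412761 bp, Hoxb1, Hoxb2 and Hoxb4 in one of 465243 bp, and the 8 Hoxd genes from Hoxd12 to Hoxd1 in one of 152403 bp. Stretches at least as long held 24.2%, 24.8%, 23.6% and 34.4% of all protein-coding genes in that order, so such gaps are common.

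**Figure D3:**
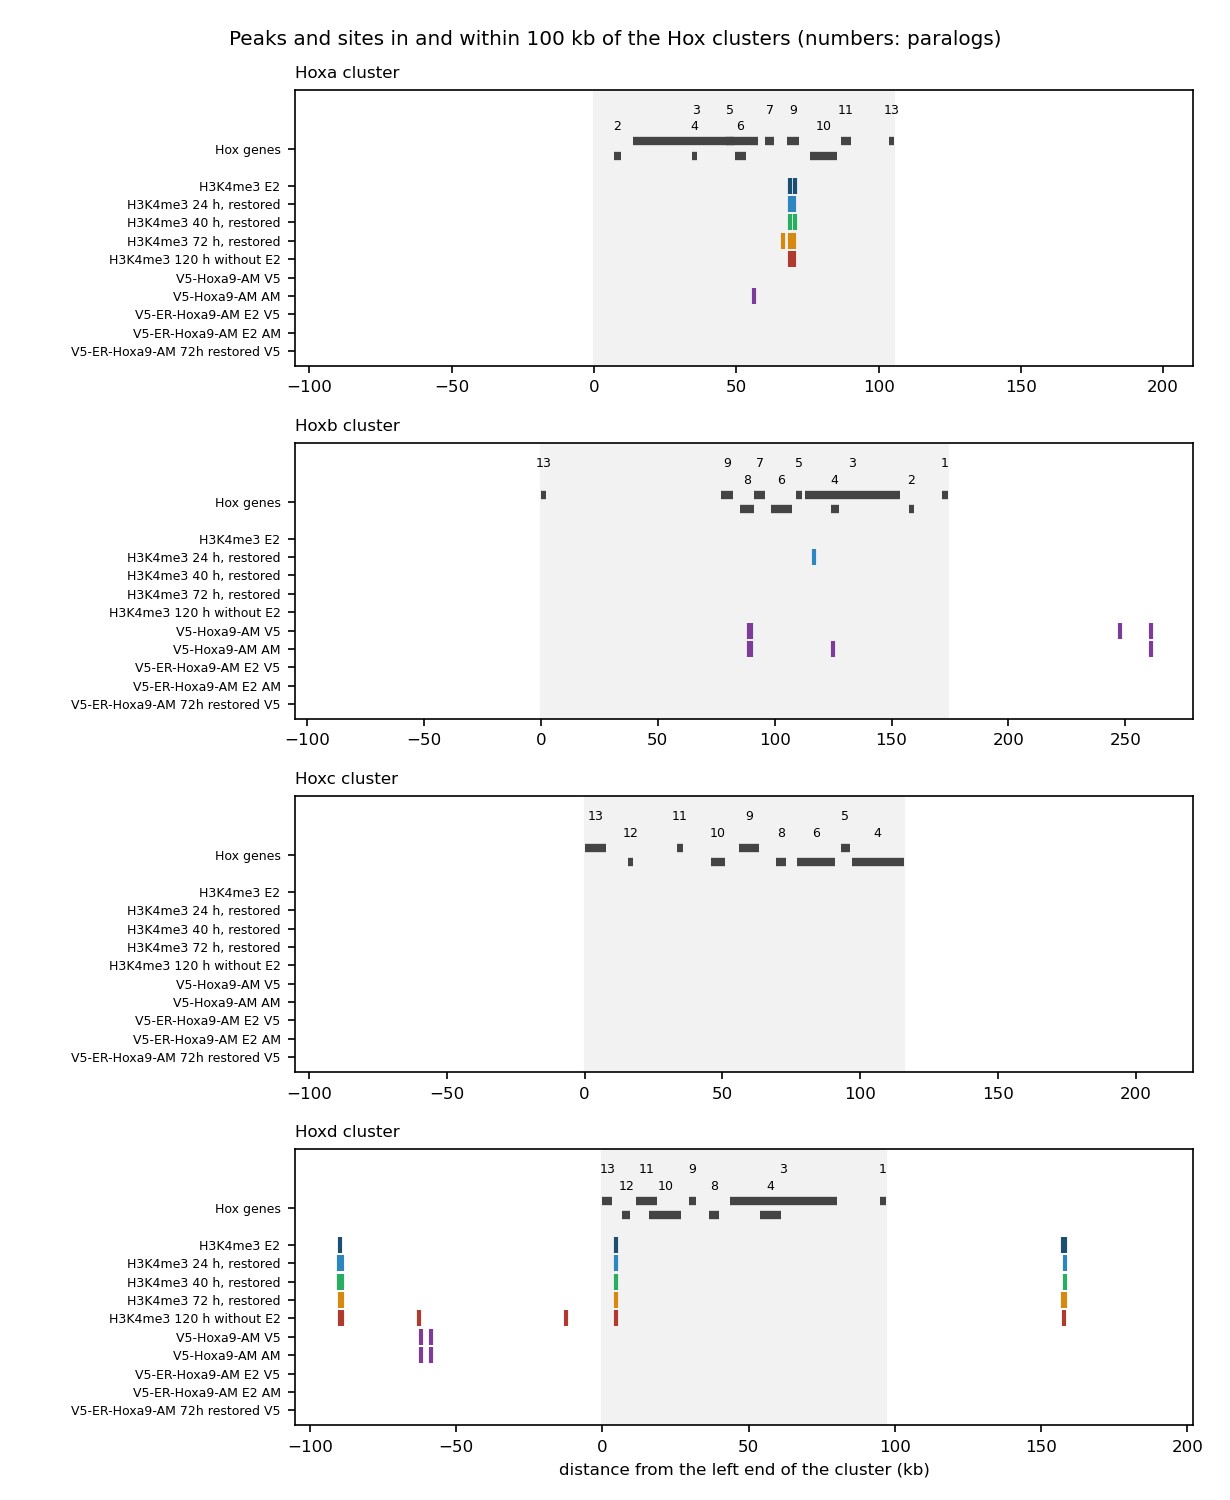
Positions of H3K4me3 peaks in the 5 lists and of V5 and AM sites in the 5 binding lists, in kb from the left end of each cluster (shaded) to 100 kb beyond both ends, with the Hox genes shown as bars labelled by paralog number. Ticks mark the middle of a peak and are not drawn to its width, and Hoxc is empty, Hoxa has ticks at Hoxa9, and Hoxb has V5 and AM sites with a single H3K4me3 peak.

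Hox promoters are often rich in CpG dinucleotides, which at most genes of these cells went with H3K4me3. The promoter table gives 300 bases around the start, 250 before and 50 after it, for 22 of the 39 genes, in 24 entries. It has none for the other 17, among them Hoxb3, Hoxb9 and Hoxc9. These 24 held 4 to 45 CpG, with a median of 14.5 against 13 over 21045 promoters of protein-coding genes. Of the promoters with at least 14.5 CpG, 71.9% of 9954 had a peak within 1 kb of the start in E2, and 74.9%, 74.9%, 76.3% and 77.4% at 24, 40, 72 and 120 h. Of the 12 Hox promoters in that class, 0 had one in any list. Without the CpG limit, 0 of 24 Hox entries and 43.8% (E2) to 49.0% (120 h) of all entries had one.

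Hoxa13 and Hoxd13 show the CpG-rich kind without a peak at the start, and Hoxb8 is shown for the binding sites inside its gene. Capitals again mark CpG in the 250 bases before the start, of GRCm38.p6 from RefSeq. They number 35 at Hoxa13 (chr6:52260881-52261130, minus strand), 31 at Hoxd13 (chr2:74667975-74668224, plus strand) and 12 at Hoxb8 (chr11:96281655-96281904, plus strand), against the 3 at Hoxa9 above.
Hoxa13: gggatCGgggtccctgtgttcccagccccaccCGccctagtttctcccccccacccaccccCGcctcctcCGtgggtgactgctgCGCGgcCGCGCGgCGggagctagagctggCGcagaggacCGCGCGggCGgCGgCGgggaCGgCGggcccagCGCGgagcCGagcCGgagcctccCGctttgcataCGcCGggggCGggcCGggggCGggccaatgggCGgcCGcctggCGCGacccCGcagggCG
Hoxd13: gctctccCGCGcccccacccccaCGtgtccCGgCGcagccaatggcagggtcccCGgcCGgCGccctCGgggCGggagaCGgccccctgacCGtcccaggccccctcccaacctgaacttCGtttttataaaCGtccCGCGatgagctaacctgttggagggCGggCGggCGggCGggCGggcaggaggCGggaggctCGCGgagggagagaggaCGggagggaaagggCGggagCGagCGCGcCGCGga
Hoxb8: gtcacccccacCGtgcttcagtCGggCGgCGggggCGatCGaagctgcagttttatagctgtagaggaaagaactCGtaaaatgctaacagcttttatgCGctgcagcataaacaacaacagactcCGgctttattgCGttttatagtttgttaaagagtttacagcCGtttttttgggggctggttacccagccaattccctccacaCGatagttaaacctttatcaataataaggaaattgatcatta

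The letters of known HOX sites were searched for on both strands of the 300 bases. The HOX-PBX sites TGATTTAT and TGATTTAC were in 0 of 24 Hox entries and in 0.822% and 0.556% of all 21045. TTTATGG, a site of posterior HOX proteins, was at Hoxd4 and in 2.28% of all, and TTTATTG at Hoxd4 and Hoxb8 and in 3.71% of all. The MEIS site TGACAG was at Hoxa2 and Hoxa3, or 2 of 24, and in 18.3% of all. TGATTTAT ends in the letters TTTAT that open TTTATGG and TTTATTG, so matches can overlap, and a match describes the letters of this window only.

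In V5-Hoxa9-AM cells, sites of tagged HOXA9 in and around the clusters were below the genome-wide rate for V5 and above it for AM. There the V5 list had 17006 sites, of which 6 lay in the clusters or within 100 kb of them, and the AM list had 6773, of which 7 did. At the genome-wide rate this span of 1.29 Mb would hold 8.35 and 3.33 sites. Inside the clusters alone, V5 had 2 sites and AM 4, or 4.06 and 8.13 per Mb against 6.46 and 2.57 over the genome. These are counts of a few sites, with no test. A V5 site fell within 1 kb of 1 of 39 Hox genes (2.56%) and of 24.0% of all genes. For AM it was 4 of 39 (10.3%) and 13.7%, so counted by genes AM was not above the background. The 3 lists of V5-ER-Hoxa9-AM cells, with 1417 (V5, E2), 258 (AM, E2) and 387 sites (V5, 72 h), had 0 sites there, beside 2.77%, 0.532% and 0.828% of all genes with one. These lists were too short to show a difference, since at their genome-wide rates the span would hold 0.696, 0.127 and 0.190 sites.

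Hoxb8, a gene that like Hoxa9 can hold myeloid progenitors in growth, was the Hox gene with V5 sites. Its 2 sites, at 96282992 to 96283457 (466 bp) and 96284148 to 96284407 (260 bp) of chromosome 11, began 1087 and 2243 bp after the annotated start, inside the gene. Both were in the V5 list and the AM list of V5-Hoxa9-AM cells. In ER-Hoxa9-Lys-GFP cells the nearest H3K4me3 peak was 27620 and 26670 bp from these sites at 24 h, which is the peak at Hoxb3. In E2 and at 40, 72 and 120 h it was 207357, 207340, 207348 and 206616 bp from the first site and 208513, 208496, 208504 and 207772 bp from the second.

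The AM list added a site of 330 bp that lies in Hoxb4 and in the long annotated span of Hoxb3 (96319137 to 96319466), and a site of 372 bp in Hoxa3, 1192 bp after its start (chromosome 6, 52211504 to 52211875). Neither was in the V5 list. The annotated span of Hoxa3 is long too, at 44009 bp, and also holds Hoxa4, Hoxa5 and Hoxa6. The site in it overlaps the lncRNA gene Hoxaas3 as well. The 2 genes Hoxb3 and Hoxb4 share 1 site, so the 4 Hox genes with AM sites rest on 4 sites, of which Hoxb8 holds 2. No V5 or AM site fell in Hoxa9 itself or elsewhere in the Hoxa cluster apart from the Hoxa3 site, and Hoxc had none within 100 kb.

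Outside the clusters, a pair of sites lay 61667 and 58431 bp before Hoxd13 (chromosome 2, 74606058 to 74606558 and 74609367 to 74609794), in both the V5 and the AM list. The first overlaps the lncRNA gene Gm39852. In ER-Hoxa9-Lys-GFP cells an H3K4me3 peak of 363 bp lay 303 bp from it at 120 h (74605393 to 74605755), while in E2 and at 24, 40 and 72 h the nearest peak was 27177, 26618, 26532 and 26607 bp away. Beyond Hoxb1, towards Skap1, a site of 495 bp in the lncRNA gene Gm11529 was in both lists and one of 271 bp in the V5 list alone. Of the 8 sites in or near the clusters, 5 were in both lists and 0 overlapped an H3K4me3 peak of the E2 list, which 8.32% of all V5 sites did. That share is of V5 sites alone, while some of the 8 are AM sites only. With so few sites, 0 is near this share and is no result about the Hox clusters. These binding and histone lists come from different cell lines.

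Some genes next to the clusters were marked and some were not. In E2, 3 of 4 listed neighbours of Hoxa, 1 of 3 of Hoxb, 5 of 5 of Hoxc and 3 of 4 of Hoxd had a peak, beside 47.1% of all genes, and at 120 h the one change was in Hoxd, with 4 of 4, beside 53.2%. Beside Hoxd, Lnpk, which encodes an endoplasmic reticulum protein, had 1002 bp in E2 and 1257, 1242, 1459 and 1644 bp at 24, 40, 72 and 120 h, and Mtx2, of the mitochondrial outer membrane, had 791, 573, 613, 913 and 1028 bp. Evx2, the homeobox gene between Lnpk and Hoxd13, had a peak of 235 bp at 120 h and none in the other 4 lists. In the Hoxd cluster and 100 kb around it, covered length was 2062 bp in E2. It was 2212, 2472, 2910 and 3904 bp at 24, 40, 72 and 120 h. Of the other neighbours, Skap2 and Hibadh beside Hoxa and Calcoco1 and Smug1 beside Hoxc were marked in all 5 lists. Beside Hoxb, Snx11, which encodes a sorting nexin, had 214 bp in E2. At 24, 40, 72 and 120 h it had 1020, 1032, 913 and 974 bp. Evx1 beside Hoxa and Ttll6 and Skap1 beside Hoxb had 0 bp in all 5.

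Among other homeobox genes, few of those of development were marked, while HOX partner genes mostly were. Of 64 developmental homeobox genes outside the clusters 3 were marked in E2, with Hhex and Hlx among them, 6 in each of the 24, 40 and 72 h lists and 9 at 120 h. The 6 marked at 120 h and not in E2 were Gbx2 (1270 bp), Dlx4 (587 bp), Dlx1 (559 bp), Lhx9 (305 bp), Nkx2-2 (274 bp) and Lhx1 (274 bp), and all but Dlx1 and Lhx1 had a peak in at least 1 list between. The share of all genes marked at 120 h and not in E2 was 6.50%. None of the 6 ParaHox genes (the Cdx, Gsx and Pdx1 sister group of Hox) was marked in any list, where 45.2% of all genes were marked in none. Whether these groups differ from the Hox genes was not tested.

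The TALE genes encode MEIS, PBX and related proteins that bind DNA together with HOX proteins. Of 11, 7 (63.6%) were marked in E2 and at 24, 40 and 72 h and 8 (72.7%) at 120 h. Beside 47.1% of all genes in E2 and 53.2% at 120 h, this is a difference of few genes. Meis1, the partner of HOXA9 in leukaemia, had 2923 bp in E2, 4825, 4016 and 2180 bp at 24, 40 and 72 h and 3077 bp at 120 h, and Pbx3 had 1912, 2644, 3044, 2930 and 2908 bp. All 33 genes for trithorax-group, Polycomb-group and related regulators of Hox clusters, among them Kmt2a, Ezh2 and Ring1, were marked in all 5 lists. The share of all genes marked in all 5 lists was 46.0%.

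**Figure D4:**
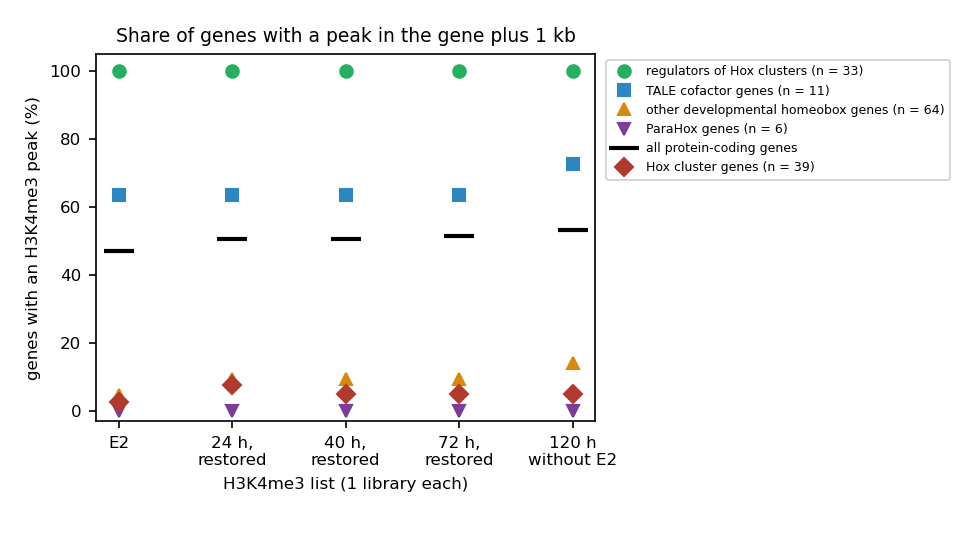
Percent of genes with an H3K4me3 peak in the gene plus 1 kb in each list (1 library each), for Hox genes, 4 other gene groups and all protein-coding genes (black bars). Hox genes stay between 2.56% and 7.69% while all genes rise from 47.1% in E2 to 53.2% at 120 h.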

How the data were processed

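The deposited files used were peak lists with chromosome, start and end coordinates and no score, 5 for H3K4me3, 3 for V5 and 2 for AM. Per the submitters' processing notes, Bowtie2 2.0, BWA and MACS2 2.0 and the builds mm9 and mm10 were used. Which of these made which list is not given in the sources used here, nor are the calling threshold and the read depth. Coordinates decided the build. Peaks of the E2 H3K4me3 list lay within 1 kb of a GRCm38 start for 65.0% of peaks, and for 4.33% once moved by 100 kb. For V5 sites of V5-Hoxa9-AM cells these were 8.96% and 2.37%. The 3 short lists of V5-ER-Hoxa9-AM cells gave little contrast (2.68% and 2.26% for V5 in E2) and were assumed to be on the same build. The 6 H3K27ac and 5 H3K27me3 lists reached 196957583 or beyond on chromosome 1, where the last GRCm38 gene ends at 195291439, and were not used for Hox genes.

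Covered bp, overlaps (1 bp), promoter letters and RefSeq tables of GRCm38.p6 were handled in Python 3.11.15, and figures were drawn with matplotlib 3.10.9. The interval functions were tested on 200 simulated windows. Sequences other than chromosomes 1 to 19 and X were left out. Members and lists were chosen with earlier results of these data known. All 39 members are counted, with values for each one with a peak, and some genes of the lists are not reported here by name or in the figures. From other lists, named genes flank a cluster or are marked in one of the E2 and 120 h lists and not in the other, at most 10 per list, and the rest are examples chosen after their values were seen. The listed symbol Prac1 matched no gene of the table. Samples were grouped by title.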

Additional observations from a re-analysis of the deposited data

How the results depend on the processing

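Of 193 values recomputed under other settings, 143 stayed within 1.5 times the reported value and 50 did not. The 143 include many values of 0 that stayed 0, such as those of Hoxc, so their number does not measure stability. No replicate exists to leave out. No paired analysis was possible because each group was 1 library. Marked Hox genes numbered 1, 3, 2, 2 and 2 in E2 and at 24, 40, 72 and 120 h. With 1 kb around gene starts only (gene ends where the table has no start) they numbered 0 in each list, and gains numbered 0 in each. With no window around the gene, or with at least 200 bp of overlap, Hoxa9 alone was marked at 40, 72 and 120 h (1 gene), gains at 24 h were 1 (Hoxb3), and gains at 40, 72 and 120 h were 0. With a window of 2.5 kb, 3 genes were marked in E2 (Hoxa9, Hoxd12 and Hoxd13), gains at 24 h were 1 and gains at 40, 72 and 120 h were 0. The gain of Hoxd13 thus held in none of these 4 settings. With each list cut to its 17497 widest peaks, Hoxd13 was gained at 24, 40, 72 and 120 h as before.

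With each list cut to peaks wider than its median, marked genes numbered 1 at 24 h (Hoxa9), 1 at 40 h (Hoxd13) and 1 at 72 h (Hoxa9). Gains at 24 and 72 h were then 0, and Hoxd13 was still gained at 40 and 120 h. At 40 h 1 gene, Hoxa9, was lost, as its peaks there are both narrower than the median of 577 bp. Covered length under this setting was 0 bp in Hoxa at 40 h, 646 bp in Hoxa at 72 h, 0 bp in Hoxb at 24 h and 0 bp in Hoxd in E2 and at 24 and 72 h. With peaks within 1 kb merged, the pair at Hoxa9 became 1 peak at 24, 72 and 120 h only, where Hoxa held 2093, 2338 and 2159 bp. In E2 and at 40 h the gap of the pair was 1015 and 1107 bp, so Hoxa stayed at 1180 and 1013 bp. Differences between lists under this setting thus depend on which gaps lay just below 1 kb. With 50 kb around the clusters there were 2 V5 and 4 AM sites in V5-Hoxa9-AM cells, and with 200 kb there were 11 and 11. With the lists cut to their 258 widest sites there were 0 and 0, and with AM sites above the median width 3. Peak lists without heights or read depth limit every value here to where a peak was called.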

Other observations

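The clusters also hold genes that make no protein. Between the first and the last Hox gene of each cluster the table lists 32 of them, 25 as lncRNA genes, among them Hotair, Hotairm1, Mira and Haglr, and 6 as miRNA genes. None of the 32 had an H3K4me3 peak in the gene plus 1 kb in any of the 5 lists. The share over all lncRNA and miRNA genes was not counted, so whether this is unusual is not known. Some of them overlap unmarked Hox genes counted above, such as Hoxaas3 with Hoxa3. The miR-196 genes lie beside the paralogs with number 9 in 3 clusters and make miRNAs known to pair with Hoxb8 mRNA. They are shown because Mir196b sits 2711 bp upstream of the Hoxa9 start without a peak. Capitals mark the seed, bases 2 to 8 from the 5' end, which both share, and the 2 differ by A12C.
mmu-miR-196a-5p: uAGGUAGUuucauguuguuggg
mmu-miR-196b-5p: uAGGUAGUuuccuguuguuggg

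Mir196b was 3941 to 3986 bp from the nearest peak, which was the nearer Hoxa9 peak in each list. Mir196a-1 in Hoxb was 45812 bp from a peak at 24 h and at least 188788 bp in the other lists, and Mir196a-2 in Hoxc at least 189083 bp.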
